A study of Mus musculus with 4 samples.

Results

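The heat shock proteins and DnaJ chaperones of the mouse ear were taken as every gene on the array whose symbol begins with Hspa, Hspb, Hspd, Hspe or Hsph and a digit, with Hsp90, or with Dnaja, Dnajb or Dnajc and a digit. This rule found 70 genes with 98 probes, out of 20971 named genes and 39429 probes. A ratio on at least 3 of the 4 arrays was available for 68 of the 70 genes, and 62 of these were well above background in both channels of all arrays. The remaining 2 genes, Dnajb7 and Dnajc5g, were not well above background in either channel and were not tested. Where a member had several probes, the brightest on average stood for it, and 21 members had more than 1 probe. Hspa1b, a near-identical copy of Hspa1a, and Dnajb5 had no probe that the rule reached, so the probe of Hspa1a may also report RNA of Hspa1b.

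The study exposed male BALB/c mice aged 6 to 10 weeks to diesel exhaust particles (DEPs) by inhalation for 1 h on each of 5 days and killed them on day 14. Ear RNA of exposed mice (DEP_ear, Cy5 dye) was hybridised together with ear RNA of mice labelled with the treatment none (CON_ear, Cy3 dye) on 4 two-colour arrays, which the labels call biological replicates 1 to 4. The number of mice behind each extract is not given in the sources used here, so that a p-value measures only the spread between these 4 arrays. All arrays lay on 1 slide and no dye was swapped, so that a preference of a probe for a dye and an effect of exposure cannot be told apart. The channels take their names from the source names of the samples, although the labels list both treatments under Cy5.

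Heat shock proteins are molecular chaperones, which hold unfolded proteins in solution and help them to fold, to cross membranes or to be degraded. The HSP70 proteins (Hspa) bind and release clients with the energy of ATP, the DnaJ or J-domain proteins (Dnaja, Dnajb, Dnajc) deliver clients to them and speed up the ATP step, and the large HSP110 proteins (Hsph) exchange the nucleotide. HSP90 proteins act late in folding, small heat shock proteins (Hspb) hold clients without ATP, and Hspd1 with Hspe1 forms the folding chamber of the mitochondrion. Some of these genes are always on, while others are induced by heat, oxidants or metals through heat shock factor 1 (Hsf1), which binds repeated GAA units in promoters.

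The tissue was dissected from the temporal bone around the middle ear and was not a pure epithelium. All 7 markers of middle ear type epithelium were well above background in both channels of every array, and so were all 15 markers of skeletal muscle, all 13 of neurons and all 7 of astrocytes. In such bulk tissue, fewer cells of a type and less RNA per cell cannot be told apart. Over all probes the arrays correlated with r between -0.22 (arrays 1 and 4) and 0.61 (arrays 1 and 2), and between 60.5% and 70.0% of non-control spots per channel and array were well above background. The number of arrays limits the precision of every value given here.

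Promoter windows are printed for 4 members of the heat-inducible core with higher mean ratios (Hspa1a, Dnajb1, Dnaja1, Hspb1) and for 2 members whose windows hold 3 heat shock units in a row (Hsph1, Hspe1). Each window is RefSeq sequence of build GRCm38.p6 from 250 bases before to 50 bases after the start of the gene, written 5′ to 3′ on the strand of the gene. Capitals mark every match to a pair of units, either GAANNTTC or TTCNNGAA, where N is any base. Both pairs read the same on either strand, and matches may overlap. The windows lie at chr17:34972107-34972406 on the minus strand (Hspa1a), chr8:83607925-83608224 on the plus strand (Dnajb1), chr4:40722218-40722517 on the plus strand (Dnaja1), chr5:135887669-135887968 on the plus strand (Hspb1), chr5:149636287-149636586 on the minus strand (Hsph1) and chr1:55087898-55088197 on the plus strand (Hspe1).
Hspa1a: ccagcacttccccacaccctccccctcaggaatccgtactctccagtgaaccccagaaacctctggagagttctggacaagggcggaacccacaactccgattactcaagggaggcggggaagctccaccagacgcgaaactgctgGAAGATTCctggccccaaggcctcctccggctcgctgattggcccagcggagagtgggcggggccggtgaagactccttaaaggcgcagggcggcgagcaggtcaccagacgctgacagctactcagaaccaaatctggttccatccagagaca
Dnajb1: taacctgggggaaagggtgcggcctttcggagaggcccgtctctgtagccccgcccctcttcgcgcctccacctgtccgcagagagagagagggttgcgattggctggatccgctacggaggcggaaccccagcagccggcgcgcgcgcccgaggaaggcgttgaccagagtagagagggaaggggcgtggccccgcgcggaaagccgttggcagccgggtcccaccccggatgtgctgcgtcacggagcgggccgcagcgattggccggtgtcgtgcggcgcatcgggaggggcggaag
Dnaja1: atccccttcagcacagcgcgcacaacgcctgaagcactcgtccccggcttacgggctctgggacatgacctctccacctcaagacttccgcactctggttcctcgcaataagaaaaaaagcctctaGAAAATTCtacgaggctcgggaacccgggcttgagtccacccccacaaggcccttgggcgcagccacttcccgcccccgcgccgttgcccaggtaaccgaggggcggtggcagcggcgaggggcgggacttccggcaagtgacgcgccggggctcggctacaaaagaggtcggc
Hspb1: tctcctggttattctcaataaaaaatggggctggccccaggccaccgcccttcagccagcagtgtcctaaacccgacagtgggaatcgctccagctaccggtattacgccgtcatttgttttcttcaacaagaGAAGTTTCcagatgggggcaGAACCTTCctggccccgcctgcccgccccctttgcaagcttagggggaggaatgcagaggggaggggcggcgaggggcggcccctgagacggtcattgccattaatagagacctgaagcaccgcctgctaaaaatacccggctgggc
Hsph1: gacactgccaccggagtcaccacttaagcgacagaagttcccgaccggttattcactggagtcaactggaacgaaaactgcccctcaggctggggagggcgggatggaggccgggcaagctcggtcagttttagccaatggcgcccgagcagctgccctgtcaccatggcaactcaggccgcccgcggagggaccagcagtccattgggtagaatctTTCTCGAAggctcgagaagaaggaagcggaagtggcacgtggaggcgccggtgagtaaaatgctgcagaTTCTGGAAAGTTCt
Hspe1: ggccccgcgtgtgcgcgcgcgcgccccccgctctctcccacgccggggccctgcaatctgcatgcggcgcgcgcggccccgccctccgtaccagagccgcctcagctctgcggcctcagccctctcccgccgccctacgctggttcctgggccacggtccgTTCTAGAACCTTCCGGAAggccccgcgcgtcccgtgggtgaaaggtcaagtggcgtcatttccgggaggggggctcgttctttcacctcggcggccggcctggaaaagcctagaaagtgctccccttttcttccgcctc
The window of Hspa1a held 1 pair that began 104 bases before the start, Dnaja1 held 1 at 124 bases and Hspb1 held 2 at 117 and 97 bases. The window shown for Dnajb1 held no match to these letters. The table holds 2 windows for Dnajb1, 3 for Dnaja1 and 2 for Hsph1, of which 1 each is shown. In Hspe1, 3 pairs overlapped from 89 bases before the start, and in Hsph1 3 units in a row began at base 37 after it.

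Of the 70 members, 56 had a promoter window in the table and 15 of these (26.8%) held a pair of units. Over all 27025 genes with a window, 17.0% held one, and 15.1% of all 32851 windows did. A row of 3 units, which is a pair followed without a gap by NNGAA or NNTTC in turn, was found in 4 members (7.14%), namely Dnajb6, Hspd1, Hspe1 and Hsph1, and in 0.662% of all genes. Hspd1 and Hspe1 share a promoter region, so the same sites may be counted for both. The median log2 ratio was 0.17 over the 14 tested members with a pair and 0.04 over the 40 tested members without one. These matches describe the letters in the windows and were not tested for binding.

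Mean ratios of the members lay close to 0 for the most part. All ratios are given as log2 of the DEP channel over the control channel, so that a positive value is a higher signal in DEP. This direction is opposite to that of the study's text. Read as labelled, 24 of 25 tested genes from the lists of upregulated genes had a mean below 0, and 9 of 11 from the lists of downregulated genes had a mean above 0. The study also reports quantitative PCR of some of these genes, a measure without the array dyes, with directions as in its text. Whether the dyes were exchanged in the labels was not tested, and every direction given here would turn if they were. Of the 68 members tested, 42 had a mean above 0 and 26 had a mean below 0, beside 54.2% above and 45.8% below over all genes. The median over members was 0.04 and that over all 25694 genes tested was 0.03. On single arrays the median over members was -0.02, 0.11, 0.00 and 0.09, and 61 of 68 members had a mean within 1.5-fold of no difference, beside 81.5% of all genes. Most members (62) were well above background in both channels of all arrays, and among all such genes this share was 90.2%.

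At the limit of 2-fold, 1 member (Hspa1a) was higher and 1 was lower (Dnajc6, whose DEP channel was well above background on 0 of 4 arrays). Over all genes tested, 2.37% passed this limit upward and 4.37% downward. Among genes well above background in both channels of all arrays, 0.70% passed it upward and 2.45% downward. After Benjamini-Hochberg adjustment over all probes in limma, 0 members passed an adjusted p of 0.05, as did 0% of all genes, and the smallest adjusted p among members was 0.105 (Dnajc6). Without adjustment, 4 members passed 0.05 upward, beside 10% of all genes, and 4 passed downward, beside 8.66% of all genes. The first 4 were Dnajb1, Dnaja1, Hspb7 and Dnajc21, and the other 4 were Dnajc6, Dnajc28, Hsp90b1 and Dnajc18. Ratios were above 0 on all 4 arrays for 13 members, beside 16.2% of all genes, and below 0 on all 4 for 6 members, beside 10.9%. As shares of the members tested, the counts before adjustment were 5.88% in each direction, and those with 1 sign on all arrays were 19.1% upward and 8.82% downward, against the background shares given for each.

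**Figure D1:**
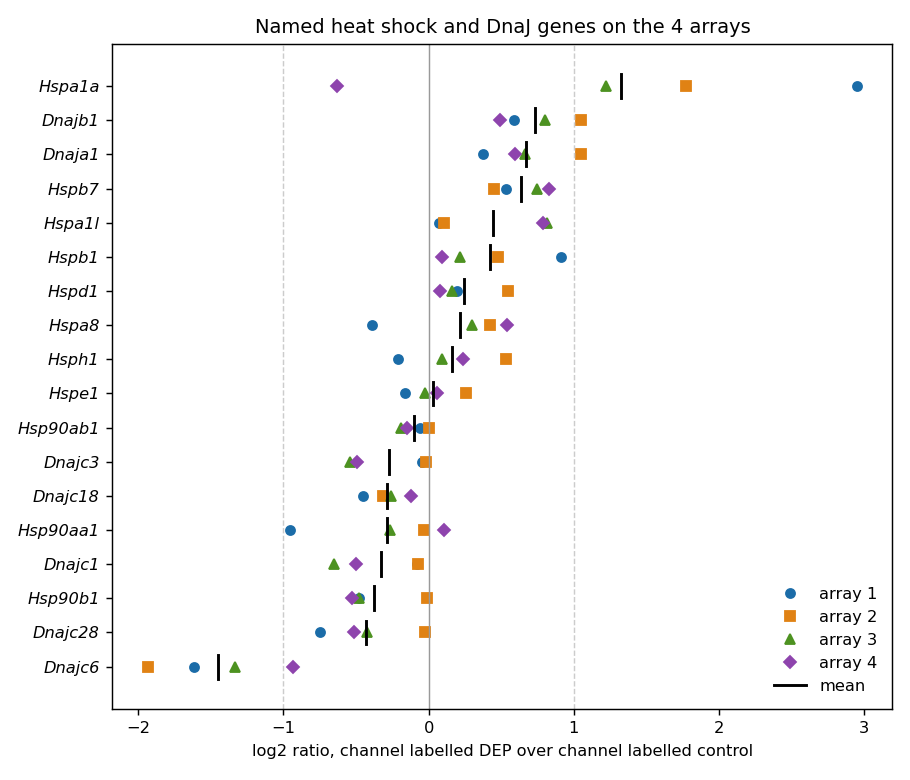
Log2 ratio of DEP over control channel for 18 named heat shock and DnaJ genes, with 1 symbol per array, a black bar for the mean over 4 arrays and dashed lines at 2-fold. Hspa1a ranged from -0.63 to 2.95, Dnajb1 and Dnaja1 lay above 0 on all 4 arrays, and Dnajc6 lay below 0 on all 4.

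The heat-inducible core comprised 10 measured genes, namely Hspa1a, Hspa8, Hsph1, Hsp90aa1, Hsp90ab1, Hspb1, Dnaja1, Dnajb1, Hspd1 and Hspe1. The name is that of the list, which also holds Hspa8 and Hsp90ab1, described below as constitutive. Of the 10 genes, 8 had a mean above 0 and 2 a mean below 0. The median log2 ratio of the core was 0.23, with medians of 0.07, 0.51, 0.19 and 0.10 on arrays 1 to 4. The median was 0.15 without array 2, 0.94 under normexp with median centring, and 0.22 without Hspa1a, an alternative chosen after seeing the data. Before adjustment 2 of the 10 core genes (Dnajb1 and Dnaja1) passed 0.05 upward, beside 10% of all genes, and 0 passed after it. The spread within the core was wide, from -0.29 (Hsp90aa1) to 1.33 (Hspa1a).

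Hspa1a encodes the HSP70 protein that is strongly induced by heat and by other protein damage. Its log2 ratio was 2.95, 1.77, 1.22 and -0.63 on arrays 1 to 4, a mean of 1.33 ± 1.49 (SD, n = 4) or 2.51-fold. The DEP channel was brighter on arrays 1 to 3 and the control channel on array 4. Processed signals in the DEP channel were 3665, 1117, 506 and 232, and those in the control channel were 474, 327, 217 and 361. The DEP channel therefore varied over arrays more widely than the control channel, and the ranges overlapped. The adjusted p in limma was 0.306, and the mean was 0.79 without array 1, which is below the 2-fold limit, and 1.98 without array 4.

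Dnajb1 (HSP40) is the heat-induced J-domain partner of Hspa1a. Its log2 ratio was 0.59, 1.05, 0.80 and 0.49, a mean of 0.73 ± 0.25 (SD, n = 4) or 1.66-fold with an adjusted p of 0.128 in limma. On every array the DEP channel was brighter, at processed signals of 16509, 17295, 10162 and 11092 against 10996, 8350, 5833 and 7890 in the control channel. Only the control channel of array 1 reached into the range of the DEP channel. Leaving out 1 array at a time kept the mean between 0.63 and 0.81.

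Dnaja1, a J-domain protein of the cytosol that works with Hspa8, had log2 ratios of 0.37, 1.05, 0.66 and 0.59. The mean was 0.67 ± 0.28 (SD, n = 4) or 1.59-fold, with an adjusted p of 0.153. A dimmer probe for the same transcript gave a mean of 0.20. Both probes thus had positive means, although they differed in size.

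Hspb1 (HSP25 of the mouse) is a small heat shock protein that binds actin and unfolded clients. Its log2 ratio was 0.91, 0.48, 0.22 and 0.09, a mean of 0.42 ± 0.36 (SD, n = 4) with an adjusted p of 0.282, and without array 1 the mean was 0.26. It was higher in the DEP channel on each array, but by little on array 4. Hspa1a and Hspb1 had the same order of arrays, with array 1 highest and array 4 lowest, whereas Dnajb1 and Dnaja1 were highest on array 2. The epithelial markers Krt5 (2.17, 0.35, 0.08 and -1.24) and Epcam (1.62, 0.61, -0.01 and -0.33) had this order too, while the other 5 of the 7 markers of middle ear type epithelium were highest on array 2. The 7 markers had medians of -0.26, 0.29, -0.91 and -0.50 on arrays 1 to 4, a median of -0.39 over all, and summed signals of 129083 to 194354 in the DEP channel and 129378 to 254467 in the control channel. The part of epithelium in the ratios of Hspa1a and Hspb1 was not tested.

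**Figure D2:**
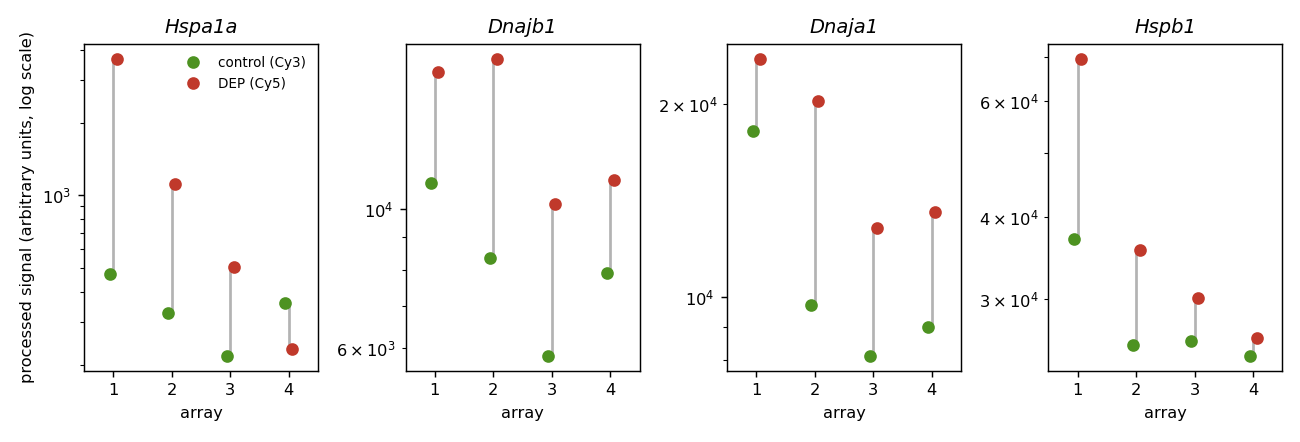
Processed signal (arbitrary units, log axis) of Hspa1a, Dnajb1, Dnaja1 and Hspb1 in the control (Cy3, green) and DEP (Cy5, red) channel of arrays 1 to 4, with a line joining the channels of an array. The DEP channel was brighter on all 4 arrays for Dnajb1, Dnaja1 and Hspb1 and on arrays 1 to 3 for Hspa1a, and signals of different genes cannot be compared.

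The other members of the core differed less. Hspa8, the constitutive HSP70 protein of the cytosol, had log2 ratios of -0.39, 0.42, 0.30 and 0.54, a mean of 0.22 with an adjusted p of 0.561. Its mean was between 0.11 (without array 4) and 0.42 (without array 1) with 1 array left out, and it turned to -0.03 when its probes were averaged. Hsph1 (HSP110), the exchange factor, had -0.21, 0.53, 0.09 and 0.24, a mean of 0.16 that was 0.040 without array 2 and 0.29 without array 1. Hence neither gene had the same sign on all arrays.

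Hspd1, the ring of the mitochondrial folding chamber, had log2 ratios of 0.20, 0.55, 0.16 and 0.08, a mean of 0.25 that was 0.15 without array 2. Hspe1, its lid, had -0.16, 0.26, -0.02 and 0.06, a mean of 0.03 that turned to -0.04 without array 2. The genes share one promoter region in the mouse, and both were highest on array 2. The adjusted p was 0.353 for Hspd1 and 0.899 for Hspe1.

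All 3 HSP90 genes had a mean log2 ratio below 0 with the deposited ratios, and all 3 had a mean above 0 (0.26, 0.69 and 0.22 for Hsp90aa1, Hsp90ab1 and Hsp90b1) under normexp with median centring. Hsp90aa1, the inducible HSP90 of the cytosol, had -0.96, -0.04, -0.27 and 0.10, a mean of -0.29 with an adjusted p of 0.483 that was -0.067 without array 1. Hsp90ab1, the constitutive form, had -0.06, 0.00, -0.19 and -0.15, a mean of -0.10. The large difference of Hsp90aa1 on array 1 was opposite in sign to that of Hspa1a on the same array.

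Hsp90b1 (GRP94), the HSP90 of the endoplasmic reticulum, had log2 ratios of -0.48, -0.01, -0.48 and -0.53, a mean of -0.37 ± 0.24 (SD, n = 4) with an adjusted p of 0.252. Array 2 stood apart from the other 3. Hspa5 (BiP), the HSP70 of the same compartment, had 0.17, 0.53, -0.03 and -0.06, a mean of 0.15. The mean of Hspa5 was 0.024 without array 2, and under median centring it was 0.72, where Hsp90b1 was above 0 as well. Neither gene passed after adjustment of the deposited ratios.

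The endoplasmic reticulum list held 13 members with a median log2 ratio of 0.07, 8 of them above 0 and 5 below. The median turned to -0.043 with probes averaged and to -0.024 without array 2. Dnajc1 and Dnajc3, J-domain proteins that act with BiP, had means of -0.33 and -0.28, and under median centring they had 0.05 and 0.02. Both were near 0 on arrays 1 and 2 (-0.08 and -0.07 for Dnajc1) and lower on arrays 3 and 4 (-0.65 and -0.50). Dnajc18 had a mean of -0.29 and was below 0 on every array. Of the 19 genes of the unfolded protein response, 11 had a mean above 0 and 8 a mean below 0 around a median of 0.02, and 1 (Calr, the lectin chaperone calreticulin, -0.39) passed 0.05 downward before adjustment, beside 8.66% of all genes, and 0 after it.

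Members of mitochondria, 8 in all, had a median log2 ratio of 0.03, and the 5 members of nucleus and ribosome had a median of 0.04. The first was -0.0086 without array 2 and 0.096 without array 1, and the second was -0.018 without array 4, -0.014 without array 3 and 0.11 without array 1. Dnajc21, a J-domain protein of ribosome assembly, had log2 ratios of 0.17, 0.33, 0.45 and 0.36, a mean of 0.33 with an adjusted p of 0.228, whereas its dimmer probe for the same accession had a mean of 0.0093. Dnajc28, a little-studied member, had -0.75, -0.03, -0.43 and -0.52, a mean of -0.43 with an adjusted p of 0.246. The testis list, of which 7 of 9 were tested, had a median of 0.03 and ranged from -0.64 (Dnajb8) to 0.59 (Dnajb3). Over the 4 of these with both channels well above background on all arrays the median was 0.24, and over the 7 it was -0.089 without array 2 and 0.13 without array 1. Dnajb8 was well above background on 3 arrays in each channel, and its mean was -0.18 with normexp and loess. Dnajb3 had log2 ratios of 1.73, 0.47, 0.61 and -0.46, a mean of 0.59 ± 0.90 (SD, n = 4). It was highest on array 1 and lowest on array 4, as was Hspa1a.

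**Figure D3:**
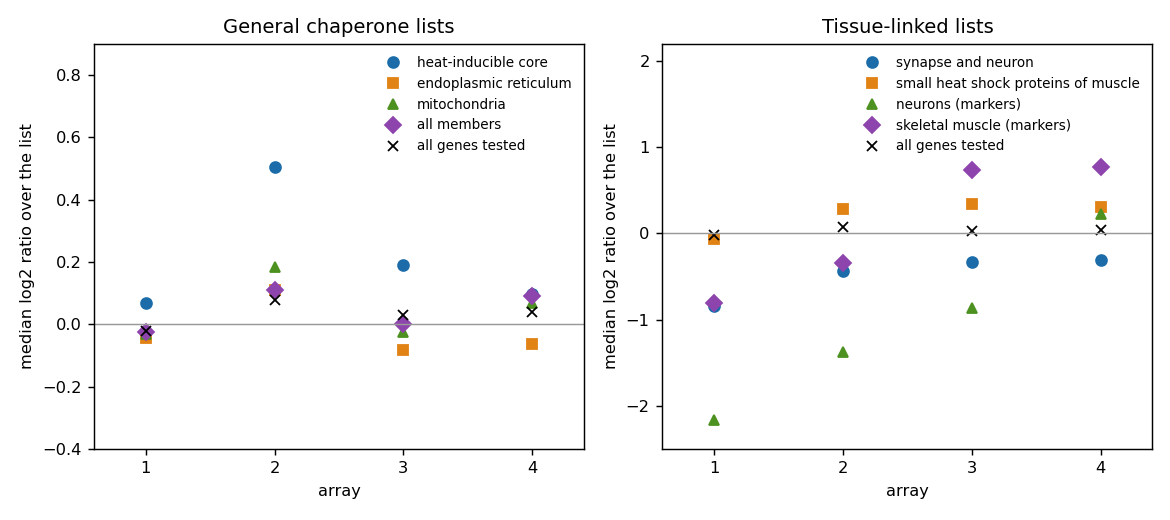
Median log2 ratio over the genes of a list on each of the 4 arrays, for the general chaperone lists with all members and all genes tested (left) and for the lists linked to nerve and muscle with the marker lists of both tissues (right). The heat-inducible core lay highest on array 2 at 0.51, and the neuron markers ran from -2.16 on array 1 to 0.22 on array 4.

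The 4 members linked to synapse and neuron all had a mean below 0 with the deposited ratios and a median log2 ratio of -0.30, whereas under median centring Dnajc5 (0.33) and Dnajb2 (0.18) were above 0 and the median was 0.01. Without array 4 the median of the deposited ratios was -0.46. Dnajc6 (auxilin), which strips the clathrin coat from synaptic vesicles, had -1.62, -1.93, -1.33 and -0.94, a mean of -1.45 with an adjusted p of 0.105. It was lower in the DEP channel on all 4 arrays, but it was well above background on 0 of 4 arrays there and on 2 of 4 in the control channel, so that its ratio rests on signals at background and its size is not settled. With normexp and loess its mean was -0.47, and with normexp and median centring it was -0.62. Dnajc5 (cysteine string protein), the chaperone of synaptic vesicles, had a mean of -0.32 with its brightest probe, which had ratios of -0.57, 0.07, -0.48 and -0.29, while its other 2 probes had means above 0. Of the 13 neuron markers, all had a mean below 0, the median was -0.98, and the medians on arrays 1 to 4 were -2.16, -1.38, -0.87 and 0.22. The summed signal of the neuron markers was 26477 to 39603 over arrays in the DEP channel and 30197 to 106871 in the control channel, and 0 of the 13 were at background. Of 9 tested cerebellum markers, 5 were well above background in both channels of all arrays, and these had medians of -2.55, -3.16, -0.32 and 0.24 on arrays 1 to 4. The median of the astrocyte markers was -1.12. Arrays 1 and 2 thus stood apart in the markers of cerebellum. The part of nerve tissue in the ratios of Dnajc5 and Dnajc6 was not tested.

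In all, 10 of 68 members (14.7%) had their lowest ratio on array 1 and their highest on array 4, beside 18.7% of all genes with 4 ratios. The median did the same in 4 of the 11 marker lists, those of neurons, astrocytes, skeletal muscle, and bone and cartilage. Hspa12a, a distant HSP70 relative, had log2 ratios of -1.12, -0.64, -0.02 and 0.64. Dnajc12, a chaperone partner of aromatic amino acid hydroxylases, had -0.98, -0.54, -0.17 and 0.16, and Dnajc27 had -1.52, -0.37, 0.00 and 0.40. These 3 genes were singled out after their values were seen, and the other 7 of the 10 were Dnajc8, Dnajc18, Hsp90aa1, Hspa8, Hspa12b, Hspb2 and Hspb11. Over the 68 members the correlation between arrays was 0.65 for arrays 1 and 2 and -0.11 for arrays 1 and 4, as a description over genes that share these arrays.

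Small heat shock proteins of muscle, 5 genes in all, had a median log2 ratio of 0.15, and 4 of the 5 had a mean above 0. The median was 0.29 without array 1, 0.088 without array 3 and 0.068 with normexp and loess. Hspb7, the cardiovascular small heat shock protein, had 0.53, 0.45, 0.75 and 0.83, a mean of 0.64 ± 0.18 (SD, n = 4) or 1.56-fold with an adjusted p of 0.128. Hspb6 (HSP20) had -0.07, 0.35, 0.91 and 0.84, a mean of 0.51. Both were higher on arrays 3 and 4 than on arrays 1 and 2, as was Hspb2 (-0.38, 0.03, 0.17 and 0.31). Hspb3 (-0.30, 0.28, 0.34 and 0.27) was low on array 1 only, and Hspb8 (0.58, -0.07, -0.36 and -0.25) went the other way. The 15 markers of skeletal muscle had medians of -0.81, -0.34, 0.74 and 0.77 on arrays 1 to 4, a median of 0.09 over all, and 11 had a mean above 0. Their summed signal was 535833 to 898512 in the DEP channel and 431971 to 1451100 in the control channel, 0 were at background, and the part of muscle in the ratios of Hspb6 and Hspb7 was not tested.

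Hspa1l, an HSP70 of the same gene cluster as Hspa1a and mainly known from testis, had log2 ratios of 0.07, 0.10, 0.82 and 0.79, a mean of 0.44 with an adjusted p of 0.293. The mean was 0.17 with normexp and loess and 0.16 with median centring. It was near 0 on arrays 1 and 2, where Hspa1a had its highest ratios. The male germ cell markers, 4 of 6 tested, had a median of 0.16, with 2 means above 0 and 2 below. Only 2, Prm1 (-0.0046) and Prm2 (-0.42), were well above background in both channels of all arrays. Ddx4 (0.77) was so on 0 arrays in either channel. The summed signal of the 4 was 157 to 369 in the DEP channel and 181 to 331 in the control channel. The part of such cells in the ratio of Hspa1l was not tested.

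The genes that work around these chaperones had a median like that of the members, and means from -0.33 to 0.53 against -1.45 to 1.33 for the members. Of 48 tested genes for other chaperones and co-chaperones, 26 had a mean above 0 and 22 a mean below 0, with a median log2 ratio of 0.04. Before adjustment 2 passed 0.05 upward, beside 10% of all genes, namely Chordc1 (0.53) and Fkbp5 (0.51), which are partners of HSP90. Downward 3 passed, beside 8.66% of all genes, namely Stub1 (-0.29), Ptges3 (-0.32) and Pfdn5 (-0.29). After adjustment 0 of 48 passed. Hsf1 itself had log2 ratios of 0.23, 0.10, 0.12 and 0.07, a mean of 0.13 with an adjusted p of 0.521. Bag3, a heat-induced partner of HSP70 and Hspb8, had a mean of -0.05, which was 0.35 under median centring. Cryab, the small heat shock protein of lens and muscle, had 0.10, and 0.047 to 0.17 with 1 array left out. Hyou1 of the endoplasmic reticulum had 0.25, and 0.19 to 0.35 with 1 array left out. Serpinh1 (HSP47), the collagen chaperone, had -0.32 that was 0.14 under median centring and -0.14 without array 1.

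Probes of 1 gene did not always give the same ratio. For all genes together, 4658 pairs of probes were compared on the same arrays, of which 29.6% differed at 0.05 before adjustment and 0% after it. Of 32 such pairs in 17 members, 14 pairs in 9 members differed before adjustment and 0 after it, and the comparison was added after seeing values. For Dnajb6, a J-domain protein that holds back aggregation, both probes of NM_001037940 had means above 0 (0.18 and 0.16) and both probes of NM_001037941 had means below 0 (-0.35 and -0.29). The differences between probes of these different accessions were 0.45 to 0.53 with adjusted p-values of 0.0542 to 0.0715 in limma. The direction given for Dnajb6 thus rested on the choice of probe.

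Dnajc5 differed in the same way, with -0.32 for its brightest probe and 0.42 and 0.29 for the other 2 probes of the same accession. The differences from the brightest probe were -0.74 (adjusted p of 0.0666) and -0.61 (adjusted p of 0.0905). Hspa8 had 0.22 for its brightest probe and -0.14 and -0.17 for its other 2 probes. Dnaja2 had -0.11 for its brightest probe and 0.22 for the other. Hence the signs of Hspa8, Dnaja2 and Dnajc5 each changed with the probe. The sign changed as well for Hspa4 (0.29 against -0.04 and -0.17), Dnaja4 (0.28 against -0.14) and Dnajb9 (0.06 against -0.15). It also did so for Dnajc10 (0.07 against -0.53), Dnajc11 (0.14 against -0.27) and Dnajc8 (0.04 and 0.05 against -0.10).

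**Figure D4:**
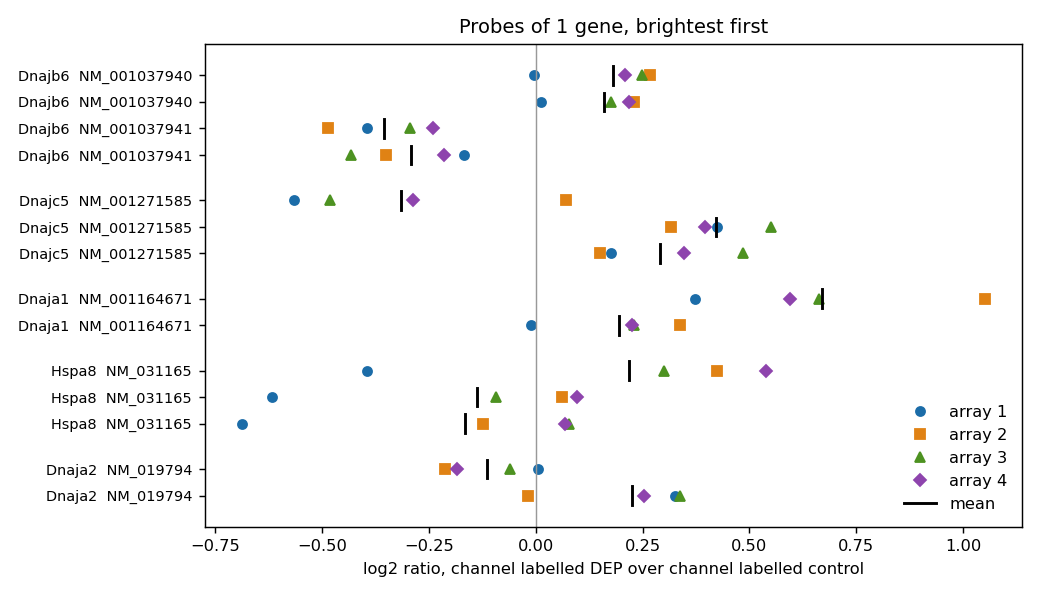
Log2 ratio of DEP over control channel for single probes of Dnajb6, Dnajc5, Dnaja1, Hspa8 and Dnaja2, each with the accession of its transcript, 1 symbol per array and a bar for the mean. The 2 upper probes of Dnajb6 lay at means of 0.18 and 0.16 and the 2 lower probes at -0.35 and -0.29.

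The median over members lay between 0.00050 and 0.10 with 1 array left out, whereas 1 of the scalings of the dyes moved it further. With normexp background correction and loess, 0 members passed after adjustment. With normexp and median centring, 18 of 68 members (26.5%) passed upward, beside 10.8% of all genes, and 1 (Dnajc6) passed downward, beside 0.794%. Before adjustment 39 members passed 0.05 upward there, beside 28.2% of all genes, and 2 passed downward, beside 8.87%. The largest ratios among the 18 were those of Dnaja1 (1.25), Dnajb1 (1.20), Hspb1 (1.12), Hspb6 (1.04) and Hspa8 (1.02). Median centring leaves in place any trend of the ratio with brightness. Under it the median of all genes moved from 0.03 to 0.11, and the median log2 ratio ran from -0.20 in the dimmest to 0.57 in the brightest of 10 equal classes of brightness. Of the 68 members, 16 were in the brightest class and 15 in the next, and the median over members was 0.34. The part of brightness in these 19 calls was not tested.

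**Figure D5:**
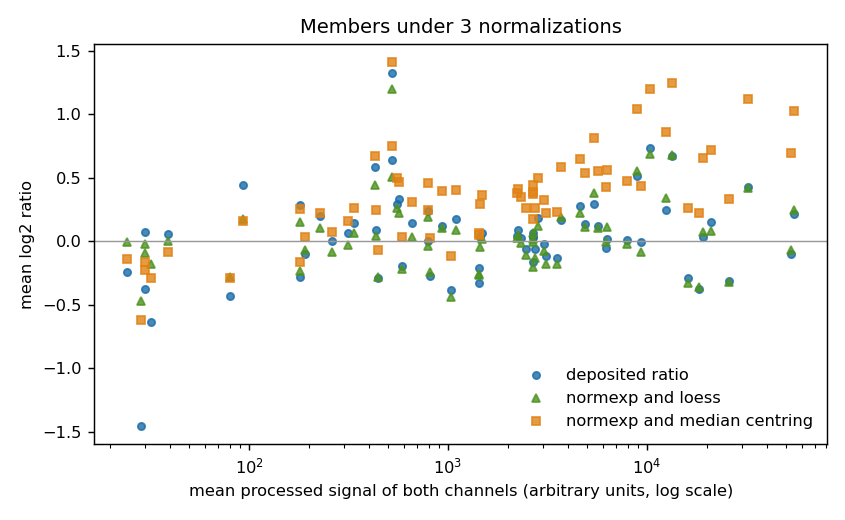
Mean log2 ratio of the 68 members against the mean processed signal of both channels (log axis, arbitrary units) for the deposited ratios, for normexp with loess and for normexp with median centring. Members with bright signals lay higher under median centring than under the other scalings, and the median over members was 0.34 there against 0.04 for the deposited ratios.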

How the data were processed

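RNA of DEP and control mouse ears was hybridised to 4 two-colour arrays. The authors scanned the arrays and used Feature Extraction 10.10.1.1 to quantify them. The deposited signals are intensities, of which the processed ones are background-subtracted and normalized for the dyes. The deposited log10 ratio is Cy5 over Cy3 processed intensity, and a second deposited table holds the same log10 values rounded. The log10 ratios were turned to log2. Flagged spots, control spots and those lacking a ratio were dropped, and the spots of each probe were averaged. Probes were named by accession through the RefSeq table of GRCm38.p6, which matched 27655 of 39429 probes. An intercept was fitted to each of 31577 probes with 3 or 4 ratios with lmFit and eBayes in limma 3.58.1 under R 4.3.3 (prior degrees of freedom 1.98, two-sided), and p-values were adjusted by Benjamini-Hochberg over all probes tested. The fit was tested on simulated data. The arrays share 1 slide, so no batch could be tested. Values of 0 columns were left without a sample.

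Named genes were the heat-inducible core, members past 2-fold, the 5 largest in each direction among members with the same sign on all arrays and both channels well above background, and 5 chaperone partners. Members and lists were chosen with earlier results of these data known. Alternatives were normexp (offset 50, on median signals) with loess or median centring, filters on dim probes, the mean of the probes of a gene, eBayes settings, the deposited rounded table and leaving out each array. Python 3.11.15 with numpy 2.4.6, pandas 2.3.3 and matplotlib 3.10.9 was used for tables and plots.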

Additional observations from a re-analysis of the deposited data

Results flagged for a closer look

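In 96 values tested for 1 array far from the other 3 by Dixon's criterion, 6 stood out, and chance alone flags about 1 in 20. Among genes, the log2 ratio of Hsp90b1 stood apart on array 2 (-0.011), that of Dnajc19 on array 1 (-0.15) and that of Hspb3 on array 1 (-0.30). The dimmer probe of Dnajc19 had its highest ratio on array 1 (0.57) and a mean of 0.44. Among medians of lists, the small heat shock proteins of muscle stood apart on array 1 (-0.068), Hspd1 with Hspe1 on array 2 (0.40) and motile cilia on array 2 (0.59).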

How the results depend on the processing

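Normexp with median centring moved most counts and medians. Members past 2-fold higher were 6, beside 1.498% of all genes, and lower 0, beside 0.856%, those below 0 were 10, beside 39.3%, those past 0.05 before adjustment were 39 higher, beside 28.2% of all genes, and 2 lower, beside 8.87%, and those past it after adjustment were 19. The medians there were 0.34 for all members, 0.94 for the heat-inducible core, 0.25 for the endoplasmic reticulum, 0.43 for mitochondria, 0.0052 for synapse and neuron, 0.44 for the small heat shock proteins of muscle and 0.38 for nucleus and ribosome. By family they were 0.43 for Hspa and Hsph, 0.26 for Hsp90, 0.38 for Hspb, 0.76 for Hspd and Hspe, 0.59 for Dnaja, 0.36 for Dnajb and 0.26 for Dnajc. In all, 18 members went from below to above 0 there and 2 the other way. The named genes that changed sign, partners of the members included, were Dnajc1 (0.052), Dnajc3 (0.025), Hsp90aa1 (0.26), Hsp90ab1 (0.69), Hsp90b1 (0.22), Bag3 (0.35) and Serpinh1 (0.14). The cause was not tested. Members past 2-fold lower were also 0 with normexp and loess, beside 1.44% of all genes. They were 0 with a filter on either channel (beside 2.63% of the genes left) or both channels (2.45%), which leaves out Dnajc6. With 2-fold asked of every array, members were 0 lower and 0 higher. Members past 0.05 higher before adjustment were 8 with loess (7.37% of all genes passed there), 7 with both channels above background (8.3%), 8 with an intensity trend (10.06%) and 7 without moderation (9.42%), where 2 were lower (6.11%). With the probes averaged, the endoplasmic reticulum had -0.043 and Hspa8 -0.029. Leaving out 1 array at a time gave 0 to 1 members past 2-fold higher. This count was 0 without array 1, beside 2.25% of all genes, and 1 without each other array, beside 2.37% to 4.13%. Past 0.05 before adjustment, 3 to 8 members were higher and 1 to 4 lower. The higher count was 8 without array 1 (10.8% of all genes passed there), 3 without array 2 (5.56%) and 3 without array 3 (6.05%), and the lower count was 2 without array 1 (7.05%), 1 without array 3 (5.98%) and 1 without array 4 (10%). Leaving out 1 array gave medians of -0.024 to 0.082 for the endoplasmic reticulum and 0.067 to 0.21 for Hspb, and means of -0.043 (without array 2) to 0.097 for Hspe1 and -0.14 to 0.063 (without array 3) for Bag3. Each ratio sets DEP against control within 1 array, so the fit is paired by array throughout. With both channels above background the testis median was 0.24 over 4 genes. Signal over background limits Dnajb8, Dnajb13, Dnajc5b, Dnajc6, Dnajc22 and Dnajc27.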
